A study of Homo sapiens with 16 samples.

Results

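The comparison set 6 h against 1 h of all-trans retinoic acid (ATRA), a hormone made from vitamin A that acts through the retinoic acid receptors of the nucleus, in ME180 cells, a human cervical squamous carcinoma line established from an omental metastasis. Its members were chosen by the array titles alone: 4 arrays of cells at 6 h and 4 arrays of cells at 1 h, 8 of the 16 arrays in the series. Both groups were given 10 µM ATRA, and all cells grew in IMDM medium with 10% fetal bovine serum. The other arrays, 4 of cells at 3 h of the same dose and 4 of cells given the DMSO vehicle, enter only to share the estimate of spread and to show where each level stood. The vehicle arrays carry no treatment time and no vehicle was matched to either time, so time in ATRA and time since the medium was handled cannot be told apart. ME180 is 1 established line, and nothing in the labels says that the 4 arrays of a group came from separate cultures. The p-values therefore measure the spread between these arrays, which may be technical.

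Immediate-early genes are the genes that a cell transcribes within minutes of a growth factor, serum, a hormone or stress, from transcription factors already present and without new protein synthesis. They encode the AP-1 factors (FOS, JUN and ATF proteins) and the EGR, NR4A and KLF transcription factors. They also encode inhibitors of the very kinases that switched them on, such as the dual-specificity phosphatases (DUSPs), and the mRNA-destabilizing protein ZFP36. Their transcripts are short-lived. Direct retinoid targets, such as the CYP26 enzymes that degrade retinoic acid and the retinaldehyde reductase DHRS3, are switched on by receptor dimers bound at their promoters.

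The values were log2 intensities of Illumina bead probes. In the replicate 1 array of every group, 77.6% of the 47230 rows stood 1 place too low in the deposited table and were moved. In these rows, replicate 1 means and the means over the other arrays had r = 0.979 across probes once moved and 0.325 as deposited, which describes the table only. These 4 arrays still differed in level at 6590 of 12467 genes and probes (52.9%), and so entered the fit as an array set with 1 array of each group. The arrays correlated with each other at r between 0.915 and 0.992. After the difference of the array set was removed, the median SD between arrays was 0.288 at 6 h, against 0.222 at 1 h. It was 0.193 in DMSO and 0.248 at 3 h. The SDs of single genes given below are of the values without this removal. The 7 squamous and epithelial markers with a probe, among them KRT5, DSG3 and CDH1, all passed the filter on dim probes, and the log2 of their summed level was 14.46 to 15.36 at 6 h and 14.66 to 15.39 at 1 h. The squamous regulator TP63 had no annotated probe here.

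The 6 h arrays were not alike at retinoid genes. CYP26A1, the main retinoic acid hydroxylase, read 12.95 and 13.13 in 6 h replicates 1 and 3 and 4.53 and 5.45 in 6 h replicates 2 and 4. At 1 h it read 10.77, 7.51, 11.81 and 12.14 in replicates 1 to 4, and in the DMSO arrays between 7.26 and 8.83. Replicates 2 and 4 of the 6 h group therefore stood below every vehicle array at this gene. The main counts are given below also without these 2 arrays, a setting chosen after their values were seen, and the part of whatever sets them apart was not tested.

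Between 6 h and 1 h, 84 of the 12467 genes and probes tested (0.674%) had an adjusted p under 0.05 with limma (Benjamini-Hochberg over all of them). Of these, 68 were lower at 6 h (0.545% of all tested) and 16 were higher (0.128%). Of the 68 lower, 59 carried a gene symbol, and of the 16 higher, 15 did. At an unadjusted p under 0.05 the split was nearly even, with 611 lower and 592 higher, and the median difference over all genes and probes was 0.01 on the log2 scale. All 4 arrays at 6 h lay below all 4 at 1 h for 49 of the 68 called lower and above them for 15 of the 16 called higher. Over everything tested, such a complete separation held for 125 lower (1%) and 162 higher (1.3%).

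The size of these counts rested on single arrays. Without 6 h replicate 2 there were 153 calls (116 lower and 37 higher), and without 1 h replicate 4 there were 47 (41 lower and 6 higher). Without 6 h replicates 2 and 4 together there were 235, 147 lower and 88 higher, and 68 of the 84 were among them. In that setting the lists described below had 8 (AP-1 and ATF), 9 (EGR, NR4A, KLF and IER), 7 (kinase feedback) and 2 (C2H2 zinc finger) members called. The number of higher calls moved most: it was 6 without 6 h replicate 1, 7 without 1 h replicate 1, 9 without 3 h replicate 1 and 10 without 6 h replicate 3 or DMSO replicate 3. Leaving out all 4 replicate 1 arrays left 37 calls, 33 lower and 4 higher, all 37 among the 84.

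Among genes with a symbol, FOSB and FOS of the AP-1 family had the largest falls. Of 9 subunit genes tested, 6 were lower at 6 h and 0 higher, with a median difference of -2.33 on the log2 scale. Over all genes and probes tested, 0.545% were called lower and 0.128% higher, shares that stand beside the lists below as well. This list and those below were drawn up with earlier results of these data known, so their counts and medians are descriptions only. FOSB, an AP-1 subunit that pairs with JUN proteins, had log2 intensities of 6.97, 6.21, 6.61 and 7.20 in the 4 arrays at 6 h, against 10.76, 10.41, 12.70 and 13.68 at 1 h. Every 6 h array thus lay more than 3 log2 units below every 1 h array, and the 1 h arrays differed among themselves by about as much. The means were 6.75 ± 0.43 at 6 h and 11.89 ± 1.56 at 1 h (SD, n = 4 each), a 35.3-fold lower intensity at 6 h (log2 difference -5.14, SE 0.60, limma adjusted p = 0.000319).

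FOS, the subunit whose transcript is the textbook immediate-early mRNA, read 6.57, 6.89, 6.34 and 7.06 at 6 h, against 10.90, 10.84, 10.54 and 11.56 at 1 h. The groups did not overlap and each was narrow, and FOS was 18.9-fold lower at 6 h (-4.24, SE 0.45, limma adjusted p = 0.000132). The DMSO arrays were split at FOS, at 5.73, 8.43, 8.69 and 6.69 in replicates 1 to 4, so the 6 h arrays fell inside the vehicle range. ATF3, a stress-induced repressor of the ATF family, was at 8.60 ± 0.40 at 6 h and 11.69 ± 1.12 at 1 h (SD, n = 4 each), a difference of -3.08 (SE 0.40, limma adjusted p = 0.000696). JUNB differed by -2.46 (SE 0.28, limma adjusted p = 0.000224), with 7.07 to 8.68 at 6 h and 9.76 to 10.73 at 1 h.

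The other called members were MAFF, a small MAF protein without a transactivation domain (-2.33), and JUN itself (-2.02), and at both some 6 h and 1 h arrays overlapped. Without the replicate 1 arrays neither kept its call, and MAFF also lost it without 1 h replicate 3 or 4 or 6 h replicate 1, 2 or 3. Only 1 array at 6 h reached a log2 level of 6 at MAFF, so the size of its fall is not settled. FOSL1, FOSL2 and JUND did not pass, with differences of -1.76, -0.46 and -0.51.

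**Figure D1:**
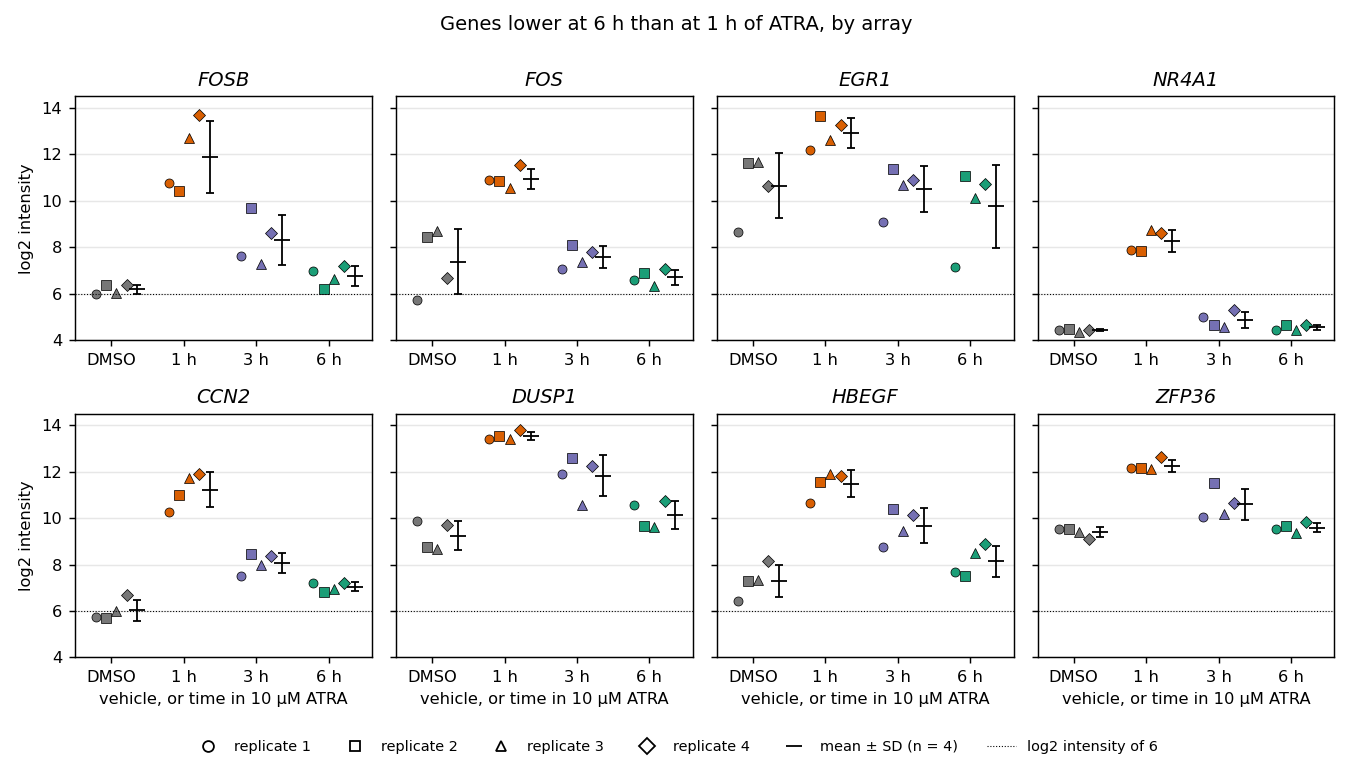
Log2 intensity (vertical axis) of 8 genes in the 16 arrays, by group (horizontal axis: DMSO vehicle, then 1, 3 and 6 h in 10 µM ATRA). Points are arrays, with the shape giving the replicate number, bars are the mean ± SD of 4 arrays, and the dotted line marks the level of 6 used as the filter. At every gene shown all 6 h arrays lie below all 1 h arrays, and at NR4A1 the 6 h arrays sit under the dotted line.

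Among the EGR, NR4A, KLF and IER genes, 6 of 13 tested were lower at 6 h and 0 higher (median -1.12). NR4A1, an orphan nuclear receptor, read 4.45, 4.64, 4.43 and 4.66 at 6 h, against 7.88, 7.84, 8.74 and 8.63 at 1 h. The 6 h arrays were all under the level of 6 taken here as the lower limit of a measured signal, so the fall was at least 4.83-fold (limma adjusted p = 2.76e-07). NR4A1 stood at 4.36 to 4.47 in DMSO, below that limit as well. Its relative NR4A2 was 4.28-fold lower (-2.10, SE 0.19, limma adjusted p = 3.1e-05), with 6.23 to 6.42 at 6 h and 7.90 to 9.01 at 1 h, and a further NR4A2 probe gave -2.75.

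EGR1, a zinc finger factor induced through serum response factor (SRF), read 7.16, 11.07, 10.11 and 10.71 at 6 h, against 12.20, 13.67, 12.60 and 13.26 at 1 h. Here the replicate 1 arrays were the lowest of each group, and the 6 h array at 7.16 stood apart from the other three. The fall was 8.98-fold (-3.17, SE 0.40, limma adjusted p = 0.000684). Without the array set in the model, the adjusted p of EGR1 was 0.229.

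The start of EGR1 is shown because it carries the sites through which SRF is known to switch it on; the window runs from 250 bases before to 50 bases after the RefSeq gene start. Capitals mark the CArG box, the sequence bound by SRF, with first bases at -105 and -83 from the start. The window is from GRCh38.p14, plus strand (chr5:138465229-138465528).
EGR1: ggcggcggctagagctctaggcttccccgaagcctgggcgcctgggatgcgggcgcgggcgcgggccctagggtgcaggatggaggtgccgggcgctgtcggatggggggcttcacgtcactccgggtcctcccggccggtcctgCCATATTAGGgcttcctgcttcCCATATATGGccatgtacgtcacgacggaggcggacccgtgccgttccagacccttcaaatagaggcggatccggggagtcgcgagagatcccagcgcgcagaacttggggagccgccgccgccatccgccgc

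KLF6, a Krüppel-like zinc finger factor (-1.49, SE 0.24), the nuclear protein IER2 (-1.48, SE 0.15) and MYC, the growth-promoting transcription factor (-1.12, SE 0.17), were lower as well. Their limma adjusted p lay between 0.000116 and 0.00511. MYC was bright throughout, at 11.20 to 11.77 at 6 h and 12.22 to 12.90 at 1 h, so its smaller difference was between groups that did not overlap. Its call was lost without the array set in the model and with only the 8 arrays of both times. The 7 members that did not pass all had negative differences, between -1.41 for IER3 and -0.76 for KLF10.

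Genes that restrain MAP kinases and receptor tyrosine kinases were lower as well: 7 of 11 tested passed and 0 were higher, with a median of -1.58. DUSP1, which dephosphorylates MAP kinases, read 10.56, 9.65, 9.61 and 10.73 at 6 h, against 13.42, 13.56, 13.39 and 13.80 at 1 h. All 1 h arrays lay within 0.5 of each other and well above the 6 h arrays, a 10.6-fold fall (-3.40, SE 0.39, limma adjusted p = 0.000282). DUSP5, a nuclear phosphatase of ERK, differed by -2.80 (SE 0.34), and DUSP2 by -0.96 (SE 0.20), the last a call lost when any 1 of 11 arrays was left out.

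ERRFI1, an inhibitor of the EGF receptor, was at 8.56 ± 0.70 at 6 h and 11.38 ± 0.59 at 1 h (SD, n = 4 each; -2.82, SE 0.36, limma adjusted p = 0.000694). RASD1, a Ras-related GTPase, read 6.13 to 7.35 at 6 h and 9.95 to 10.41 at 1 h, a 10.8-fold difference. The salt-inducible kinase SIK1, a brake on CREB coactivators, was 7.09-fold lower (-2.83, SE 0.34), with 5.86, 7.85, 5.88 and 7.60 at 6 h, a group split between replicates 1 and 3 and replicates 2 and 4. Only 2 arrays at 6 h reached the level of 6 at SIK1, so its fold is not exact. PHLDA1, a pleckstrin homology protein, differed by -1.58. DUSP6 (-1.47), DUSP4 (-0.31), SPRED1 (-0.25) and SPRED2 (-0.23) did not pass.

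The starts of DUSP1 and PPP1R15A are shown as those of called genes with a whole cyclic AMP response element (CRE), spelled TGACGTCA and bound by CREB and ATF proteins; capitals mark it, with first bases at -125 and -58 from the start. They are RefSeq windows of the same length from GRCh38.p14, minus strand for DUSP1 (chr5:172771146-172771445) and plus strand for PPP1R15A (chr19:48872171-48872470).
DUSP1: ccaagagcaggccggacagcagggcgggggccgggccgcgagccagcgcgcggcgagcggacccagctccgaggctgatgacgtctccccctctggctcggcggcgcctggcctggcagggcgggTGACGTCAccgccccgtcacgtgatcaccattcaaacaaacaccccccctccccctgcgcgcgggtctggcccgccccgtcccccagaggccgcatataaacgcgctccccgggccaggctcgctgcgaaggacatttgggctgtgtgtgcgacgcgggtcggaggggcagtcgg
PPP1R15A: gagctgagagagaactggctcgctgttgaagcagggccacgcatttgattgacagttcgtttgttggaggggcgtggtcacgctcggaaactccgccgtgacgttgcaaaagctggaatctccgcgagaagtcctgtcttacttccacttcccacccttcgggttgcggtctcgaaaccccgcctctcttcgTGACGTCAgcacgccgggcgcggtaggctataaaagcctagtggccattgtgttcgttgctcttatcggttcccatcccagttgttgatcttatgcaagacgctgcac

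Of the 59 genes called lower, 51 had such a window. The CRE was found, on either strand, in 5 of them (9.8%; DUSP1, EPHA2, MAFF, PPP1R15A and RBBP6), against 266 of 7924 windows of all genes in the fit (3.36%). A CArG box was in 2 (3.92%), against 87 (1.1%). The AP-1 site TGACTCA was in 0, against 240 (3.03%). The NF-kappaB site was in 6 (11.8%) and in 2 of the 13 windows of genes called higher (15.4%), against 577 (7.28%). The retinoic acid response element of the DR5 type was in 0 of the windows of genes called lower and in 0 of 13 windows of genes called higher, against 17 (0.215%). These are matches of letters, not shown to be bound, and the shares were not tested.

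Genes of mRNA decay and translation control were lower in 3 of 9 cases, with 0 higher (median -0.83), and without 6 h replicates 2 and 4 together there were 5 called. ZFP36, which binds AU-rich elements and speeds the decay of immediate-early and cytokine mRNAs, read 9.51, 9.64, 9.36 and 9.84 at 6 h, against 12.15, 12.15, 12.10 and 12.65 at 1 h. Both groups were narrow, with no overlap between them, and it fell 6.38-fold (-2.67, SE 0.25, limma adjusted p = 5.27e-05). ZC3H12A, an endoribonuclease of cytokine mRNAs (Regnase-1), was 4.29-fold lower (-2.10, SE 0.27), with 3 arrays at 6 h reaching the level of 6. PPP1R15A (GADD34), which reverses the phosphorylation of the translation factor eIF2 alpha, was 2.49-fold lower (-1.32, SE 0.19), a call lost without the replicate 1 arrays and with the 8 arrays alone. ZFP36L1 and ZFP36L2, close relatives of ZFP36, had differences of -0.83 and -0.98 that did not pass.

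CCN2, a matricellular protein and target of the YAP and SRF pathways, read 7.21, 6.82, 6.97 and 7.19 at 6 h, against 10.25, 11.00, 11.73 and 11.92 at 1 h, with no overlap. It fell 18.1-fold (-4.18, SE 0.28, limma adjusted p = 1.38e-06), and a further CCN2 probe gave -3.23. Its relative CCN1 did not pass (-2.75, SE 0.64, limma adjusted p = 0.0742): at 6 h it read 7.92, 8.42, 7.21 and 10.27, and the last overlapped the 1 h arrays, which lay between 9.90 and 12.09. CCN2 was the only called gene of 11 tested in the list of SRF and YAP targets, whose median was -0.04. The actins ACTB (-0.04) and ACTG1 (0.04) did not pass, nor did SRF (-0.84). Without 3 h replicate 3 or without 6 h replicate 4 there were 2 called, and without 6 h replicates 2 and 4 together 3.

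HBEGF, a membrane-bound ligand of the EGF receptor, had 7.68, 7.50, 8.50 and 8.90 at 6 h, against 10.64, 11.57, 11.91 and 11.80 at 1 h. It was 10.1-fold lower (-3.33, SE 0.29, limma adjusted p = 2.96e-05), and each 6 h array lay above at least 3 of the 4 vehicle arrays (6.43 to 8.14). EGFR (-0.74), TGFA (-0.44), ERBB3 (-0.39) and ERBB2 (0.12) did not pass, so 1 of 5 tested in this list was called (2 without 6 h replicates 2 and 4 together). EDN2, a vasoactive endothelin peptide, read 6.24, 7.99, 5.71 and 7.21 at 6 h, against 9.90, 10.73, 11.04 and 11.02 at 1 h. It was 14.8-fold lower (-3.88, SE 0.39, limma adjusted p = 9.4e-05), and the difference of the 6 h mean from DMSO, -1.31, was the lowest of all 68 genes and probes called lower, though it did not pass against DMSO. Only 3 arrays at 6 h reached the level of 6 at EDN2, so its fold is not exact.

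Among cytokine genes, none of 14 tested members of the NF-kappaB, cytokine and chemokine list passed (limma, 5 at an unadjusted p under 0.05), with a median of -0.40. CCL20, a chemokine of dendritic cells and T cells, read 10.31, 6.26, 9.17 and 10.50 at 6 h, against 11.16, 10.61, 12.49 and 11.84 at 1 h. The groups did not overlap, yet the 6 h arrays were spread over more than 4 log2 units (-2.46, 95% interval -4.24 to -0.68, limma adjusted p = 0.319). IL1B read 10.24, 6.16, 9.51 and 8.15 at 6 h and 10.06, 8.41, 11.14 and 10.69 at 1 h (-1.56, limma adjusted p = 0.561). PTGS2, the inducible cyclooxygenase, differed by -2.06 (SE 0.49, limma adjusted p = 0.0874), and IL1A by -0.999 (SE 0.23, limma adjusted p = 0.064) with no overlap between groups. PTGER4, a receptor for the prostaglandin that PTGS2 helps to make, is outside this list and the rule for naming, and was singled out after its values were seen. It passed, at 7.66 to 8.88 at 6 h and 9.90 to 11.50 at 1 h (-2.57, SE 0.28, limma adjusted p = 0.000183).

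A few members of the clock, Notch and TGF-beta lists were lower. BHLHE40, a basic helix-loop-helix repressor of clock genes that retinoic acid is known to induce in other cells, read 8.24, 7.44, 8.46 and 7.49 at 6 h, against 10.71, 10.53, 11.32 and 12.15 at 1 h. The fall was 9.66-fold without overlap (-3.27, SE 0.35, limma adjusted p = 0.000157). PER2, a core clock repressor, fell 2.62-fold (-1.39, SE 0.24, limma adjusted p = 0.00859), and these were the 2 called of 10 clock genes, whose median was -0.14. HES1, the repressor at the end of the Notch pathway, read 7.44 to 7.93 at 6 h and 8.41 to 9.16 at 1 h (-1.21, SE 0.16, limma adjusted p = 0.00118), the 1 called of 10 Notch genes (2 without 6 h replicate 2, 3 without 6 h replicates 2 and 4). PER2 and HES1 lost their calls without the replicate 1 arrays.

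BAMBI, a decoy receptor of the TGF-beta family (-1.26, SE 0.19), and TGIF1, a corepressor of SMAD proteins (-0.90, SE 0.16), were the 2 called of 13 genes in the DLX, ID and BMP/TGF-beta list (median -0.60). The TGIF1 call was lost without 1 h replicate 4 and without 6 h replicates 2 and 4 together, and that of BAMBI without the array set in the model or without the replicate 1 arrays. The growth-arrest genes GADD45B (-1.80, SE 0.24, limma adjusted p = 0.00113) and GADD45A (-1.06, SE 0.21, limma adjusted p = 0.0299) were 2 of 9 called in their list (median -0.32). GADD45A lost its call when any 1 of 8 arrays was left out, among them 1 h replicates 1, 3 and 4, and without 6 h replicates 2 and 4 together. CDKN1A, the cyclin-dependent kinase inhibitor p21, did not pass (-0.44, 95% interval -0.78 to -0.10, limma adjusted p = 0.37).

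Further called genes lay outside the rule for naming and were singled out after their values were seen. TRIB1, a pseudokinase that scaffolds protein degradation (-2.35, SE 0.27), the nuclear protein CSRNP1 (-2.28, SE 0.33), IFFO1, an intermediate filament family member (-2.09, SE 0.21), and the kinase PIM1 (3.99-fold) were each lower with no overlap between groups and passed with any single array omitted. The receptor tyrosine kinase EPHA2 (-1.72, SE 0.31) was also called, with overlapping groups, and lost its call without 1 h replicate 4. Without the replicate 1 arrays CSRNP1 and EPHA2 lost theirs. The probe of MIR21, the gene of an abundant oncogenic microRNA, read 4.78, 4.70, 4.53 and 4.76 at 6 h, against 6.59, 5.53, 6.63 and 7.27 at 1 h. It was at least 1.42-fold lower (limma adjusted p = 0.0264), a call lost when any 1 of 6 arrays was left out and without 6 h replicates 2 and 4 together.
The array measured the transcript of the MIR21 gene and not the mature strand, whose RefSeq sequence (chr17:59841273-59841294, plus strand) is given with the seed, bases 2 to 8, in capitals.
hsa-miR-21-5p: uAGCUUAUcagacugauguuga

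At 3 h the called genes stood, in their medians, between their 1 h and 6 h levels. Relative to the DMSO mean, the 68 genes and probes called lower had a median of 1.77 at 1 h, 0.68 at 3 h and 0.07 at 6 h on the log2 scale, and at 6 h they ranged from -1.31 (EDN2) to 1.01 (CCN2). All 68 were lower at 3 h than at 1 h in their means, and 62 were lower at 6 h than at 3 h. By 3 h, 50 of the 68 had covered at least 50% of the difference between their 1 h and 6 h means and 18 had covered less. Among these 18 were MYC, at 1.21, 0.80 and 0.10 above its DMSO mean at 1, 3 and 6 h, and PHLDA1, at 1.67, 1.27 and 0.09. JUNB, ATF3, KLF6 and SIK1 had covered nearly all of their fall by 3 h, with differences of 6 h minus 3 h of -0.16, -0.34, -0.003 and 0.43 (log2). At HBEGF, DUSP1 and EDN2 the means at 6 h were still below those at 3 h, with differences of -1.53, -1.69 and -1.78. None of these 7 genes passed between 6 h and 3 h (limma adjusted p between 0.0955 and 0.9999). Over everything tested, 0 of 12467 genes and probes (0%) passed between these times, so this is not particular to the 7. These medians describe genes chosen for their 1 h and 6 h values and share those arrays.

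**Figure D2:**
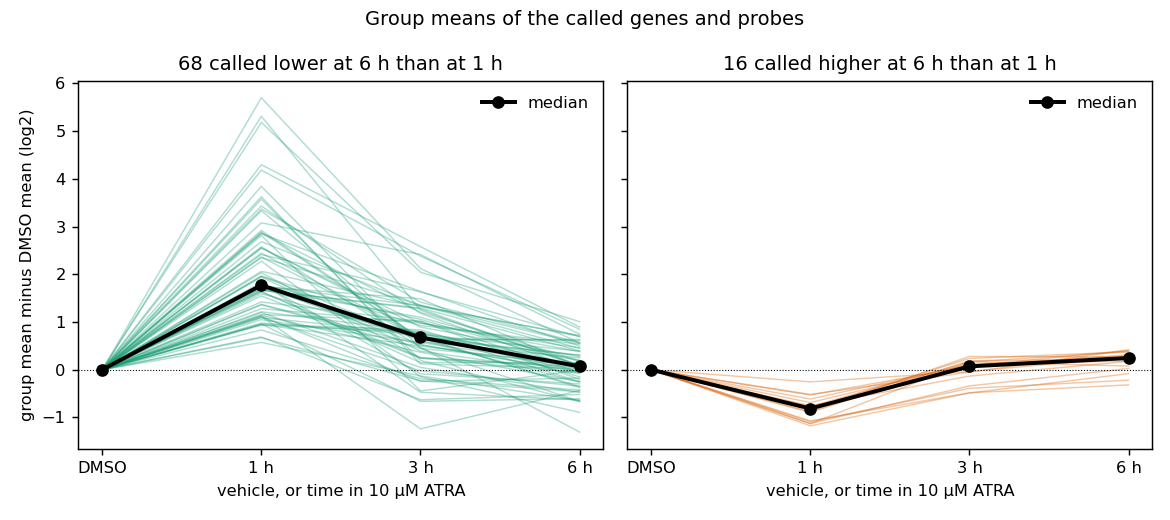
Group means of the called genes and probes minus their DMSO mean (log2, vertical axis) by group (horizontal axis), with the 68 called lower at 6 h than at 1 h on the left and the 16 called higher on the right. Thin lines are genes or probes and the thick line is their median. The median of those called lower stands at 1.77, 0.68 and 0.07 at 1, 3 and 6 h, and that of those called higher at -0.81, 0.07 and 0.25.

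No gene passed between 6 h and DMSO: 0 of 12467 (0%) with limma, with 1416 at an unadjusted p under 0.05. This count was 50 without 6 h replicate 2, 2 without DMSO replicate 4, 195 with array weights and 266 without 6 h replicates 2 and 4 together. A missing call at 6 h therefore does not place a gene at its vehicle level. For CCN2 the 95% interval of the difference from DMSO was 0.41 to 1.61, for DUSP1 0.06 to 1.73 and for HBEGF 0.23 to 1.46, with adjusted p-values over all genes of 0.201, 0.415 and 0.290.

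The rises were small and many belonged to zinc finger genes. Of the 16 called higher, 15 had a symbol. PARS2, the mitochondrial prolyl-tRNA synthetase, read 6.79, 6.45, 6.35 and 6.79 at 6 h, against 5.59, 5.72, 5.33 and 4.92 at 1 h, where all 4 arrays were under 6, so the rise was at least 1.51-fold (limma adjusted p = 0.00259). ISL1, a LIM homeobox factor, read 8.57, 8.28, 8.49 and 8.75 at 6 h, against 7.52, 7.66, 7.16 and 7.36 at 1 h. Its 6 h arrays overlapped the DMSO arrays (8.46 to 8.74) and lay above all 1 h arrays (1.09, SE 0.15, limma adjusted p = 0.00115).

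The C2H2 zinc finger genes encode mostly repressors with many DNA-binding fingers. ZNF613 read 7.55, 7.45, 7.77 and 7.23 at 6 h, against 6.45, 6.44, 6.52 and 5.85 at 1 h, a 2.28-fold rise (1.19, SE 0.20, limma adjusted p = 0.00901). ZNF416 was at 7.68 ± 0.26 at 6 h and 6.53 ± 0.32 at 1 h (SD, n = 4 each; 1.15, SE 0.16). ZNF564 was at 7.26 ± 0.14 at 6 h and 6.13 ± 0.23 at 1 h (1.13, SE 0.16). These, PARS2 and ISL1 passed with any single array omitted, while ZNF613 and ZNF416 lost their calls without the replicate 1 arrays. At each of the 5 genes the 6 h arrays were all above the 1 h arrays.

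The other zinc finger genes called higher were ZNF443 (1.15), ZKSCAN4 (1.12), ZNF232 (0.93), ZNF20 (0.90) and ZNF211 (0.87), with limma adjusted p between 0.0157 and 0.0417. Each lost its call without 3 or more single arrays, 1 h replicate 4 and 6 h replicate 1 among them, and that of ZKSCAN4, ZNF232 and ZNF211 was also lost without 6 h replicates 2 and 4 together. Of the 13 tested members of the C2H2 zinc finger list, 3 were called higher and 0 lower (median 0.52). Taken by symbol, a class chosen after the calls were seen, 8 of 243 zinc finger genes tested were called higher and 0 lower (7 and 0 without 6 h replicates 2 and 4 together). Over all 12467 genes and probes tested, 16 were called higher (0.128%) and 68 lower (0.545%). The median difference of the class was 0.26, and 72% of it had a positive difference, against 52.2% of all genes and probes tested. Relative to DMSO the median of this class was 0.05 at 6 h and -0.20 at 1 h.

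The remaining rises were HJURP, the chaperone that loads the centromeric histone CENP-A (0.94), the E-box factor USF1 (0.93), IQCC (0.87), HILPDA, a lipid droplet protein (0.75), and KANSL2, a subunit of a histone acetyltransferase complex (0.53). Their limma adjusted p lay between 0.0335 and 0.0497, and each call was lost without 6 or more of the single arrays. HILPDA rose while ANKRD37, an ankyrin repeat protein that hypoxia also induces, fell (-1.59, SE 0.18, limma adjusted p = 0.000286), and they were the 2 called of 14 hypoxia and glycolysis genes, whose median was -0.19.

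**Figure D3:**
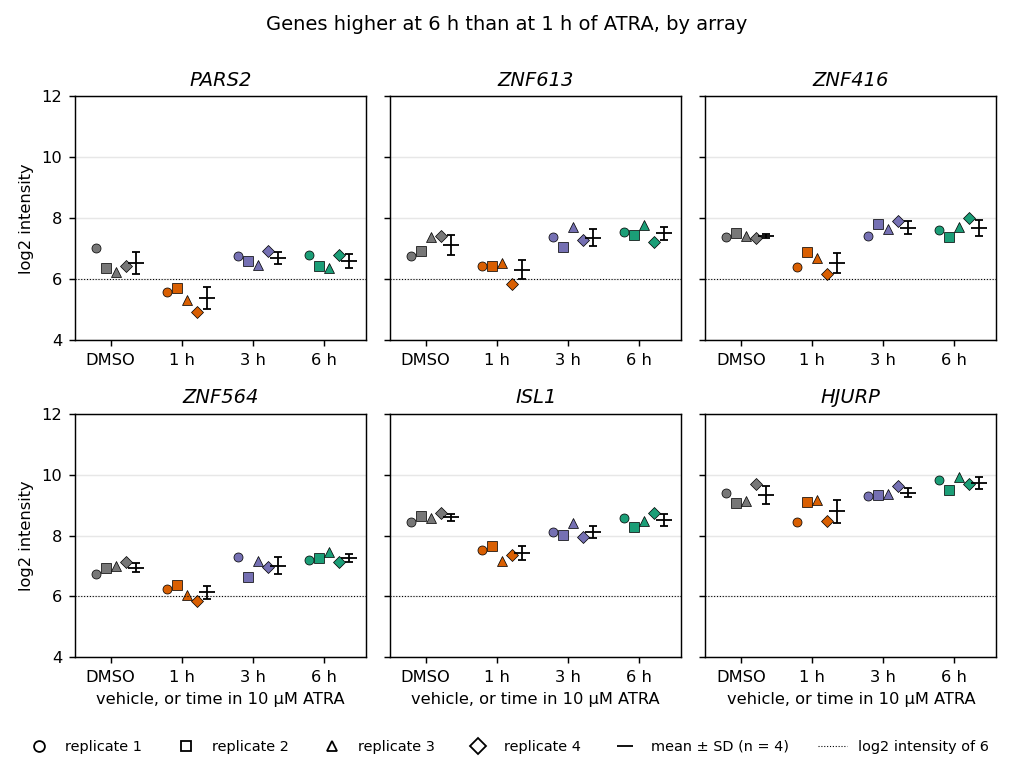
Log2 intensity (vertical axis) of 6 genes called higher at 6 h than at 1 h, in the 16 arrays by group (horizontal axis), drawn as for the genes that fell. At each gene all 6 h arrays lie above all 1 h arrays, and the 6 h arrays of ISL1 (8.28 to 8.75) overlap those of DMSO.

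Retinoid genes showed no call between 6 h and 1 h: 0 of 9 tested metabolism and transport genes and 0 of 7 receptors and coregulators passed (limma, 1 and 2 at an unadjusted p under 0.05), with medians of -0.16 and -0.25. At CYP26A1 the difference was -1.54 with a 95% interval of -5.06 to 1.97 (limma adjusted p = 0.807), so that neither a large fall nor a 3-fold rise lay outside it. Its SD was 4.66 at 6 h and 2.11 at 1 h (n = 4 each). The other 2 probes of CYP26A1 that passed the filter read 10.46 and 10.01 in 6 h replicate 1 and 4.53 and 4.34 in 6 h replicate 4, the same division of the arrays. Their differences between 6 h and 1 h were 0.12 and 0.05, so these probes did not share the negative sign. Both probes read under 6 in 6 h replicates 2 and 4, in 1 h replicate 2 and in every DMSO array. Values under that level are not taken as measured here, so these differences do not settle the direction.

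CYP26B1, the second of these hydroxylases, read 10.68, 6.70, 11.51 and 7.12 at 6 h, against 9.74, 9.07, 11.42 and 11.25 at 1 h (-1.37, 95% interval -3.37 to 0.64, limma adjusted p = 0.686). Replicates 2 and 4 of the 6 h group lay within the DMSO range of 6.22 to 7.80, and replicates 1 and 3 were near the 1 h and 3 h arrays. DHRS3, which turns retinaldehyde back to retinol, read 12.33, 9.24, 12.68 and 10.27 at 6 h, against 11.42, 10.73, 11.57 and 11.45 at 1 h (-0.16, limma adjusted p = 0.954). Replicates 1 and 3 were above every other array outside the 6 h group, and replicates 2 and 4 below every one of them. ELF3, an epithelial ETS factor listed among the retinoic acid-induced genes, was lower in 6 h replicates 2 and 4 (7.92 and 8.58) than in 1 and 3 (10.74 and 10.92), with 10.75 to 12.16 at 1 h (-2.10, SE 0.53, limma adjusted p = 0.121).

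Without 6 h replicates 2 and 4 the difference of DHRS3 was 1.21 in place of -0.16. Since those arrays were set aside for their values at this kind of gene, no test is read from it. CRABP2, the cytosolic carrier of retinoic acid, was bright and steady (13.55 ± 0.42 at 6 h and 13.40 ± 0.14 at 1 h, SD, n = 4 each; 0.15, 95% interval -0.25 to 0.55). GPRC5A, a retinoic acid-inducible orphan receptor, differed by -0.23 and RARG, a retinoic acid receptor, by -0.30. RARB and TGM2, known retinoid targets in other cells, were too dim for the filter, with highest values of 6.12 and 5.15 in any array. BHLHE40 was the 1 called gene of 11 in the list of retinoic acid-induced targets (2 without 6 h replicate 3).

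**Figure D4:**
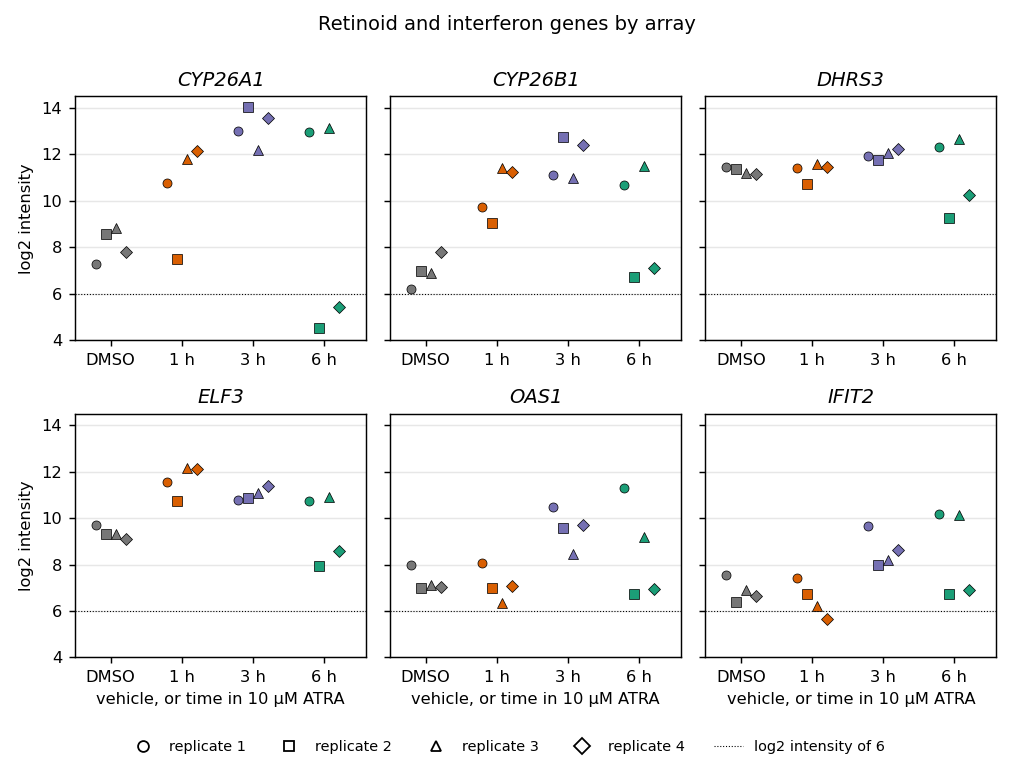
Log2 intensity (vertical axis) of 4 retinoid genes and 2 interferon-induced genes in the 16 arrays by group (horizontal axis: DMSO vehicle, then 1, 3 and 6 h in 10 µM ATRA), with the shape of each point giving the replicate number. At every gene shown, 6 h replicates 2 and 4 lie below 6 h replicates 1 and 3, at CYP26A1 with 4.53 and 5.45 against 12.95 and 13.13.

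Of 18 interferon-induced genes tested, 0 passed (limma, 4 at an unadjusted p under 0.05, median 0.23). IFIT2, IFIT3 and OAS1 are given because of their values and were chosen after these were seen. IFIT2, an interferon-induced antiviral protein, read 10.19, 6.71, 10.13 and 6.92 at 6 h, against 7.43, 6.72, 6.21 and 5.64 at 1 h (1.99, SE 0.56, limma adjusted p = 0.187). OAS1, which makes the activator of RNase L, read 11.30, 6.75, 9.20 and 6.95 at 6 h and 8.06, 6.99, 6.35 and 7.08 at 1 h (1.43, SE 0.55, limma adjusted p = 0.398). IFIT3 differed by 1.11 and ISG15 by 0.15. At both genes given by array, replicates 1 and 3 at 6 h were above all 1 h arrays while replicates 2 and 4 were among them.

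The lists that describe the state of the epithelium and of the cell cycle held few calls or none. Of 12 squamous progenitor factors, ISL1 was higher and OVOL1, an epithelial differentiation factor, lower (-1.44, SE 0.31, limma adjusted p = 0.0485), a call lost when any 1 of 12 arrays was left out. At OVOL1 only 1 array at 6 h and 3 arrays at 1 h reached the level of 6, so the size of its fall is not settled. SOX2, a factor of stem and squamous progenitor cells, read 5.74, 6.80, 5.83 and 6.61 at 6 h, against 5.83, 5.75, 5.73 and 6.37 at 1 h (0.33, 95% interval -0.17 to 0.82, limma adjusted p = 0.692), with 7.10 to 8.02 in DMSO. The other SOX2 probe that passed the filter gave -0.02, and at that probe some 6 h and 1 h arrays overlapped the DMSO arrays. In the list of matrix metalloproteinases, 1 of 5 was called, their inhibitor TIMP3 (-1.21, SE 0.25, limma adjusted p = 0.0392), lost when any 1 of 11 arrays was left out.

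With limma, none passed among 8 basal keratin and adhesion genes (median -0.15), 18 cornified envelope genes (0.15), 10 simple epithelial markers (0.03), 18 S phase genes (-0.06), 19 mitosis genes (0.07) or 17 apoptosis genes (-0.01). The same held for 11 Wnt, 5 plasminogen and coagulation, 13 unfolded protein, 13 cholesterol and fatty acid, and 13 heat shock and metallothionein genes, whose medians lay between -0.51 and 0.10. At an unadjusted p under 0.05 these lists held at most 3 members each. The 12 ribosomal protein genes (0.00) and 9 housekeeping genes (0.02) had medians close to that of all genes and probes. Of the markers of other cells, 2 of 10 fibroblast, 2 of 9 endothelial and 1 of 9 leukocyte markers with a probe passed the filter on dim probes, and none of them was called (COL1A1 had an unadjusted p under 0.05).

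**Figure D5:**
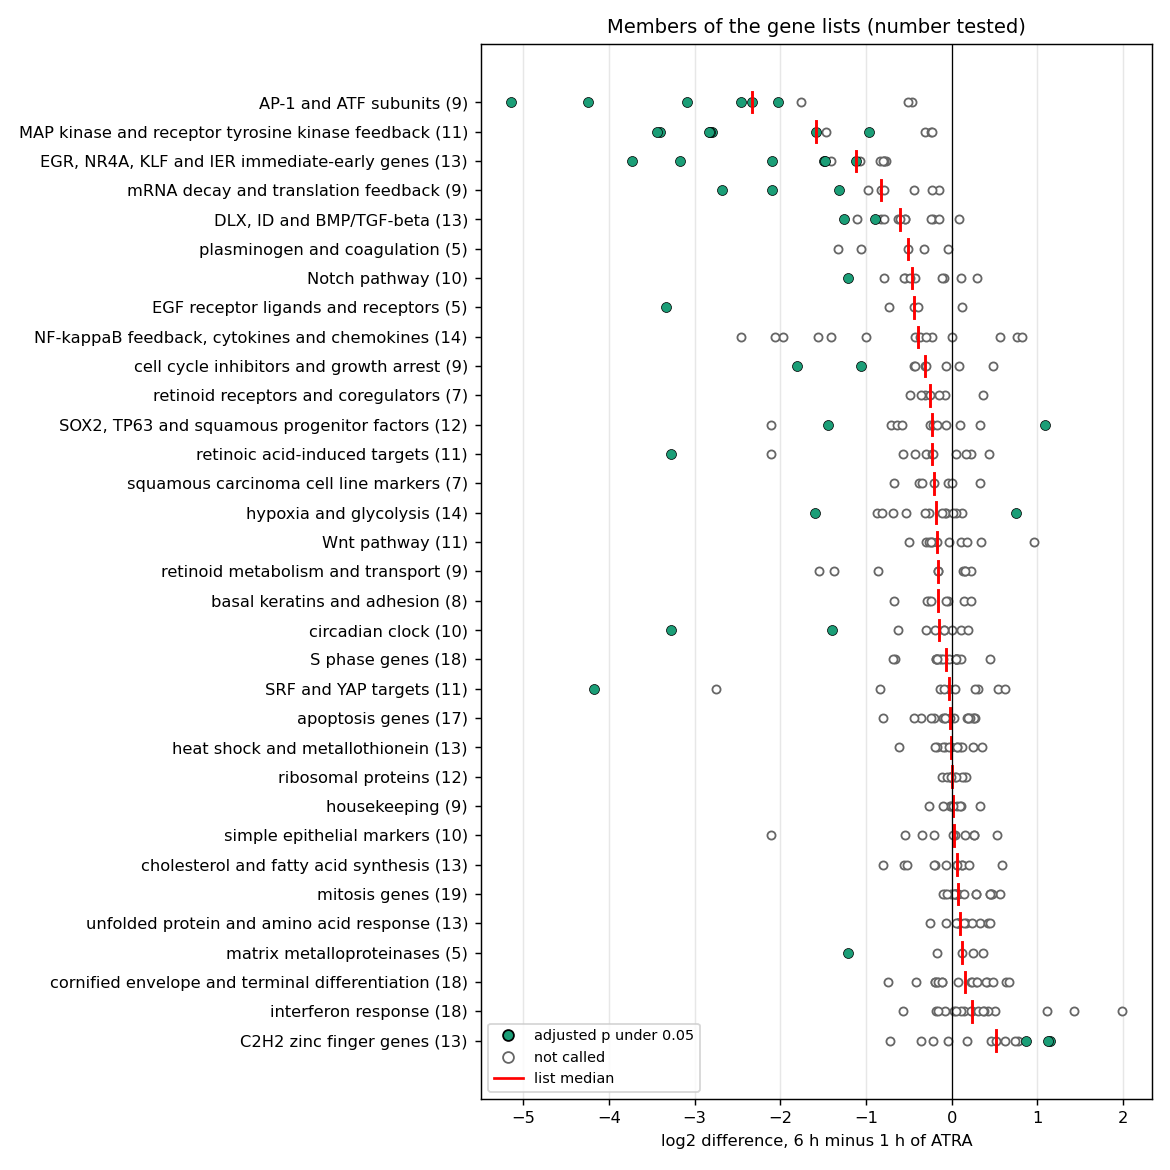
Log2 difference between 6 h and 1 h of ATRA (horizontal axis, 6 h minus 1 h) of every tested member of the gene lists other than the markers of other cells (vertical axis, number tested in brackets), with filled points for a limma adjusted p under 0.05, open points for the others and a red line at the list median. The AP-1, kinase feedback and EGR, NR4A, KLF and IER lists have the lowest medians, at -2.33, -1.58 and -1.12.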

How the data were processed

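Total RNA was labelled with biotin and hybridised to Illumina bead arrays, per the labels' protocols. The log2 values are those of the value table deposited by the authors; limma is named in the submitters' processing notes, with no role. Base 2, brighter probes having higher values and no centring of genes were read from the values (4.23 to 14.73). Arrays were already aligned in distribution, to within 0.0181 at any rank of the lower 99%. The sources used here do not state background correction or offset, and the number of arrays limits the precision. The 32 value columns of the non-normalized table match no sample label and were not used; only its row order was.

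Rows of the 4 replicate 1 arrays were moved as described. Of 47230 probes, 30113 had 1 symbol in the platform annotation, 8 had several and 17109 none; 0 symbols changed on checking against a RefSeq table. Probes with log2 of at least 6 in at least 4 of 16 arrays were kept (15271), and the probe with the highest mean stood for its gene. Among all called genes with a symbol, 12 had 14 further probes that passed the filter, all in the same direction. Of these probes, 6 had a limma adjusted p under 0.05 over all probes that passed the filter. A log2 difference against a group under 6 in every array is given as a bound. Where only some arrays of a group were under 6, the difference is given without a bound.

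The test was limma 3.58.1 in R 4.3.3 (lmFit, eBayes, two-sided): 4 groups and the array set over 16 arrays, 11 residual and 3.61 prior degrees of freedom, Benjamini-Hochberg over 12467 genes and probes. It was run on simulated data with the same spread in every group. That check cannot cover the unlike spread of the real groups (median SD 0.288 at 6 h and 0.193 in DMSO). Named were the 15 largest rises and the 15 largest falls among called genes, up to 4 called members of each list and a set of always reported genes, 55 in all, 45 of them called. The 36 lists (525 genes, 484 with a probe) and the members were chosen with earlier results of these data known. Alternatives changed the block, arrays, row move, filter, variance model, weights, centring and probe rule.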

Additional observations from a re-analysis of the deposited data

Results flagged for a closer look

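Of 110 groups of 4 arrays examined (the named genes at 6 h and at 1 h), 4 held an array that lay far from the other three. Chance alone does this in about 1 in 20 independent groups. These groups share the same arrays, so nothing is read from their number. RARG read 6.55 in 6 h replicate 1, against 5.23 to 5.41 in the other 6 h arrays, which are under 6. Its SD of 0.63 at 6 h was near those at 1 h (0.70), at 3 h (0.63) and in DMSO (0.60). The part of the array set in this was not tested. ZNF613 read 5.85 in 1 h replicate 4, against 6.44 to 6.52 in the other 1 h arrays. ZFP36 read 12.65 in 1 h replicate 4, against 12.10 to 12.15. SOX2 read 6.37 in 1 h replicate 4, against 5.73 to 5.83. Thus 3 of the 4 were in 1 h replicate 4, the array without which the count of calls between 6 h and 1 h was 47 in place of 84. A link between the 2 was not tested. The division of the 6 h arrays at CYP26A1 and similar genes puts 2 arrays on each side and is not found by this rule.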

How the results depend on the processing

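Between 6 h and 1 h the count of calls, 84 (16 higher and 68 lower), was 43 without the array set (6 and 37), 37 without the replicate 1 arrays (4 and 33), 35 with only the 8 arrays (2 and 33), 25 with the rows as deposited (3 and 22), 285 with array weights (134 and 151) and 60 with no filter (10 higher). It ranged from 47 to 153 with single arrays left out (6 to 37 higher and 41 to 116 lower), and was 235 (88 and 147) without 6 h replicates 2 and 4. The count between 6 h and DMSO, 0, ranged from 0 to 50 with single arrays left out and was 195 with array weights and 266 without 6 h replicates 2 and 4; it was 0 under the other settings. Array weights put 0.267 on 6 h replicate 4 and 3.49 on 1 h replicate 1. With the replicate number as a block in place of the array set there were 77 calls (10 higher and 67 lower), 72 of them among the 84. Same-numbered 6 h and 1 h arrays deviated from their group means with r of 0.842, 0.619, -0.133 and -0.135 for replicates 1 to 4. Among arrays of unlike number, 6 h replicate 4 and 1 h replicate 3 had the highest r, 0.705. These deviations still held the difference of the array set, so they do not settle whether the samples were paired. The block is therefore not read as a paired analysis, and pairing by number or in another order was not tested. Each of the 45 called named genes kept its direction in every setting whose filter it passed, while DHRS3, not called at -0.16, was 1.21 without 6 h replicates 2 and 4. Of the 55 named genes, 51 passed the filter of log2 at least 6 in 8 arrays and 52 that of at least 7 in 4 arrays. With the rows as deposited some were also missing. Of the 45 calls, 31 held whichever array was left out. The causes of these changes were not tested, beyond fewer arrays in the fit where arrays were left out. A group under 6 in every array set only a bound. Where only some arrays of a group were under 6, the difference rests partly on levels not taken as measured.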
